A study of Mus musculus with 18 samples.

Results

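Bone marrow of 6 CCAT2-GT mice, labelled DRAI+, was compared with bone marrow of 8 mice labelled DRAI-, a pool of 4 CCAT2-G and 4 CCAT2-T animals. These 14 mice were chosen by their labels alone, out of 18 in all. The other 4 are wild-type (WT) mice, which serve here for context and for the shared estimate of spread. All animals were on a C57Bl6 background, and the transgenic ones were engineered to overexpress CCAT2, a long non-coding RNA, from its G or its T allele in all tissues. The labels do not spell out the DRAI status, do not say how a CCAT2-GT animal was made, and give no age or sex. No probeset carries the symbol Ccat2, so the level of the transgene was not checked here. A single array was made per mouse from total RNA of flash-frozen marrow cells, and the titles call the mice biological replicates. The question is how marrow expression differs with DRAI status among transgenic mice.

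Bone marrow holds the whole range of developing blood cells. Granulocytes and their precursors make up a large part of it, beside erythroid cells, B-cell precursors that rearrange their antigen receptor genes, megakaryocytes that shed platelets, monocytes, and a supporting stroma. A bulk array measures the sum of their RNA, so fewer cells of a type and less RNA per cell cannot be told apart in any value given here. The tissue label was borne out by its defining markers. The neutrophil genes Ltf and S100a8 lay at 12.26 or above on the log2 scale in every mouse, and the B-cell gene Cd79a lay between 4.83 and 9.08.

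The sample descriptions give each transgenic mouse an identifier with a letter whose meaning is not stated: G for CCAT2-GT replicates 1 to 3 and the CCAT2-G mice, T for CCAT2-GT replicates 4 to 6 and the CCAT2-T mice. Several arrays stood apart in ways that the labels do not name. CCAT2-G replicate 3 lay far from the other DRAI- mice in many of the genes and lists described here. Xist, which shuts down an X chromosome in cells of females, was high in 3 of 6 DRAI+ mice, in 1 of 8 DRAI- mice and in 0 of 4 WT mice, and these 4 arrays are called Xist-high. The interquartile range of the log2 values ran from 2.90 to 3.36, and it was under 3.1 on 5 arrays, of which 0 came from DRAI+, 3 from DRAI- and 2 from WT mice. These 5 are called narrow arrays in what follows. A list of genes of stroma, bone and endothelium reached its top values in CCAT2-GT replicates 4 and 6 and WT replicate 4, at 6.68, 7.38 and 6.57, and these 3 arrays are called stroma-rich.

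The only difference that passed the test lay in a pair of probesets that carry no gene symbol in the platform annotation. Probeset 1426174_s_at had log2 values of 10.14, 12.34, 9.49, 10.21, 9.76 and 10.22 in the DRAI+ mice, against 7.60, 8.24, 8.39 and 7.39 in the CCAT2-G mice and 6.62, 7.50, 6.33 and 8.30 in the CCAT2-T mice. Probeset 1424631_a_at had 11.00, 12.86, 10.22, 10.88, 10.39 and 10.88 in the DRAI+ mice, against 8.46, 9.17, 8.90 and 8.39 in the CCAT2-G mice and 7.80, 8.26, 9.10 and 9.27 in the CCAT2-T mice. On each, the lowest DRAI+ mouse lay above the highest DRAI- mouse and above all 4 WT mice, which reached 8.52 and 9.63. CCAT2-GT replicate 2 was the highest mouse on both. The values of the pair correlated at 0.949 over the 14 mice, 0.996 within DRAI+ mice and 0.478 within DRAI- mice. Whether both measure the same RNA was not tested.

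Both probesets rose in DRAI+ marrow in the fit across all probesets. The first was higher by 2.81 (SE 0.38), a 7.02-fold difference, and the second by 2.37 (SE 0.32), a 5.16-fold difference (limma with Benjamini-Hochberg adjustment, adjusted p = 0.00764 for each). On both, all 6 DRAI+ mice were above the DRAI- mean. These were 2 of 31571 probesets tested, or 0.00633%. The differences were 2.46 and 2.31 against CCAT2-G alone and 3.17 and 2.43 against CCAT2-T alone. Both calls were kept without each of the 14 mice in turn, but not in every other fit. With the 14 transgenic arrays alone the adjusted p was 0.0563 for each, and without the narrow arrays it was 0.875, at differences of 2.63 and 2.07. Without the stroma-rich arrays it was 0.138, and against CCAT2-G alone 0.408. With the letter of the identifier as a covariate and the WT arrays left out it was 0.0706.

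**Figure D1:**
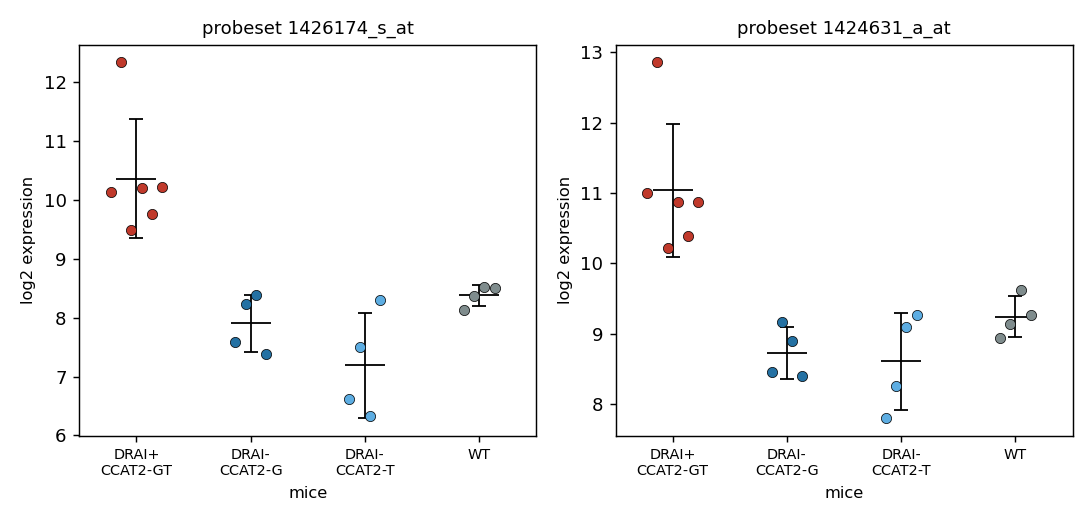
Log2 expression of the 2 probesets past the threshold, in each mouse. Points are mice, the wide bar is the group mean and the error bar the SD. All 6 DRAI+ mice, at 9.49 or above on 1426174_s_at and 10.22 or above on 1424631_a_at, lie above every DRAI- and WT mouse.

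Among annotated genes, 0 of 14505 passed (0% called, limma, smallest adjusted p = 0.456). At an unadjusted p under 0.05 there were 1388 genes, or 9.57%, where 725 would be found by chance. Of these, 557 were higher in DRAI+ marrow (3.84% of all genes) and 831 were lower (5.73%). The number of genes at that p in either direction was 860 without CCAT2-GT replicate 4, 2491 without CCAT2-G replicate 3, 803 without the narrow arrays and 629, under the number by chance, without the stroma-rich arrays. Over all genes the median difference was -0.01 and 48.3% were higher, while 27 genes were higher and 51 lower by more than 1 on the log2 scale. Over all probesets 9.8% had an unadjusted p under 0.05.

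**Figure D2:**
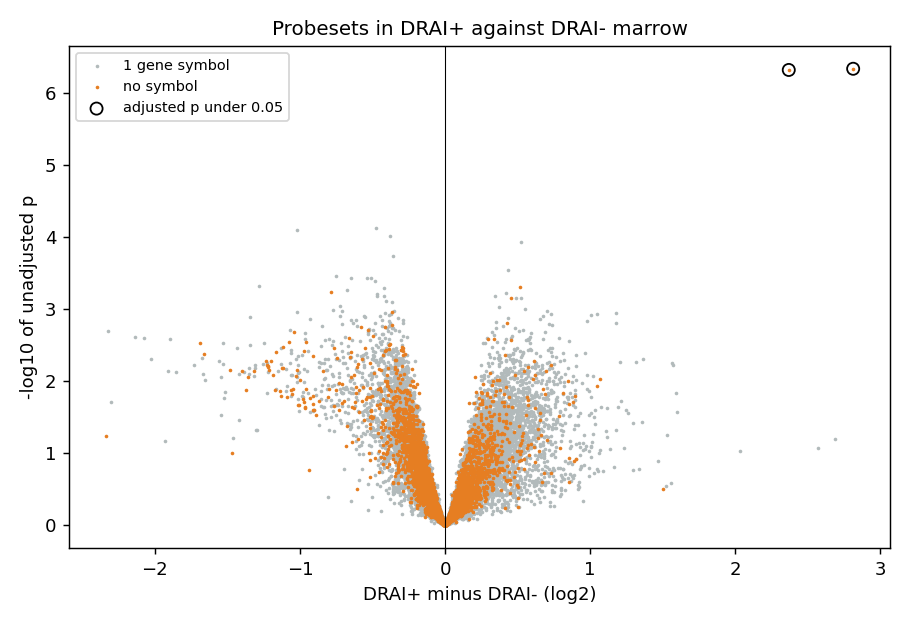
Difference between DRAI+ and DRAI- marrow (log2, horizontal axis) against -log10 of the unadjusted p (vertical axis) for tested probesets with 1 gene symbol or with none, those with several not drawn. The 2 probesets with adjusted p under 0.05, at 2.81 and 2.37, stand alone at the upper right.

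The count of called genes depended on CCAT2-G replicate 3. Without that mouse 7 of 14505 genes passed (0.0483%), 3 higher and 4 lower, and they are named here after their values were seen. They were Pla2g7 at 1.25, the peroxisomal fatty acid transporter Abcd2 at 1.07, the calcium-binding membrane protein Mctp1 at 0.60, Serinc5 at -0.88, Dnajc7 at -1.15, the histone deacetylase Hdac9 at -1.12 and the clone 4930426D05Rik at -1.51 (limma, adjusted p = 0.00139 to 0.0232). Abcd2 lay between 6.01 and 6.57 in DRAI+ mice, against 4.89 to 5.91 in 7 DRAI- mice and 7.20 in CCAT2-G replicate 3. Hdac9 lay between 3.64 and 5.03 in DRAI+ mice, against 5.15 to 6.00 in those 7 and 3.97 in CCAT2-G replicate 3. On both genes that mouse alone made the groups overlap. Over all 14 mice Abcd2 differed by 0.82 (SE 0.28) and Hdac9 by -0.93 (SE 0.25), each with an adjusted p of 0.456 by limma. Leaving that mouse out also moved the number of probesets past the threshold to 121 of 31571.

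None of the 12 genes of smallest p on the higher side passed, and 4 of them are given first. Clec4a3, a C-type lectin of myeloid cells, had a lowest, median and highest value of 7.42, 7.96 and 8.55 in DRAI+ mice, against 6.13, 6.82 and 8.15 in DRAI- mice, a difference of 1.05 (SE 0.28). Pla2g7, a secreted phospholipase that breaks down platelet-activating factor, had 8.43, 8.73 and 9.23 in DRAI+ mice, against 7.13, 7.55 and 9.46 in DRAI- mice (1.01, SE 0.27). The groups overlapped on Pla2g7 only through CCAT2-G replicate 3, since the next DRAI- mouse had 7.82. Fcgr4, an activating receptor for IgG, had 7.83, 8.24 and 8.81 in DRAI+ mice, against 7.16, 7.58 and 8.31 in DRAI- mice (0.68, SE 0.18). Csf1, the growth factor of macrophages, had 6.40, 5.94, 6.27, 6.62, 6.52 and 6.45 in DRAI+ mice, against 6.11, 5.98, 6.06 and 6.03 in CCAT2-G mice and 6.01, 6.00, 5.92 and 6.00 in CCAT2-T mice (0.35, SE 0.09). A single DRAI+ mouse lay within the DRAI- range of Csf1, and the other 5 were above it. For these 4 genes the adjusted p was 0.456 by limma.

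The other 8 genes of that side were Zkscan5 (0.42, SE 0.10), a zinc finger protein, Aldh7a1 (0.49, SE 0.12), an aldehyde dehydrogenase of lysine breakdown, Itm2b (0.43, SE 0.12), a membrane protein, and the tyrosine kinase Fer (0.40, SE 0.11). They also included the ubiquitin ligase Rnf144b (0.74, SE 0.20), the Cdc42 effector Cdc42ep2 (0.48, SE 0.13), Fnbp1l (0.54, SE 0.15), which bends membranes during actin assembly, and the RNA exosome subunit Exosc6 (0.33, SE 0.09). All 6 DRAI+ mice were above the DRAI- mean for each of the 12 genes except Csf1, where 5 were. The other probeset of Zkscan5 and that of Aldh7a1 pointed the other way, and 1 of 2 other probesets did so for Csf1, Itm2b and Fer.

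On the lower side, Dnajc7, a co-chaperone of the heat shock proteins, had 6.85, 7.45 and 7.90 in DRAI+ mice, against 7.53, 8.45 and 8.93 in DRAI- mice, a difference of -1.02 (SE 0.21). Its lowest DRAI- value belonged to CCAT2-G replicate 3. Serinc5, a membrane protein that restricts retroviruses, had 6.44, 6.67 and 7.04 in DRAI+ mice, against 6.55, 7.59 and 7.75 in DRAI- mice (-0.75, SE 0.17). Ltb, a lymphotoxin subunit made by lymphocytes, had 7.26, 8.45 and 9.51 in DRAI+ mice, against 9.01, 9.46 and 9.71 in DRAI- mice (-1.02, SE 0.27). The groups overlapped on all 3. Lig4, the ligase of non-homologous end joining, which also seals antigen receptor rearrangements, differed by -0.71 (SE 0.18). Lrmp, an endoplasmic reticulum protein of lymphoid cells, differed by -0.56 (SE 0.15). None of these 5 passed (limma, adjusted p = 0.456 for each).

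The remaining 7 genes of the lower side were the retinoic acid binding protein Crabp2 (-0.48, SE 0.09), Igf1os (-0.47, SE 0.11), named as the opposite strand of Igf1, the early endosome GTPase Rab5b (-0.47, SE 0.11) and the cone phosphodiesterase Pde6c (-0.42, SE 0.10). They also included Sergef (-0.36, SE 0.09), the phosphatase regulator Ppp1r37 (-0.39, SE 0.10) and the kinase Cdk3 (-0.45, SE 0.12). Crabp2 and Pde6c are dim, with medians of 3.32 and 3.17 in DRAI+ mice, close to the mean of 3.30 under which genes were left out. Against each allele alone all 24 genes of both sides kept their direction.

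**Figure D3:**
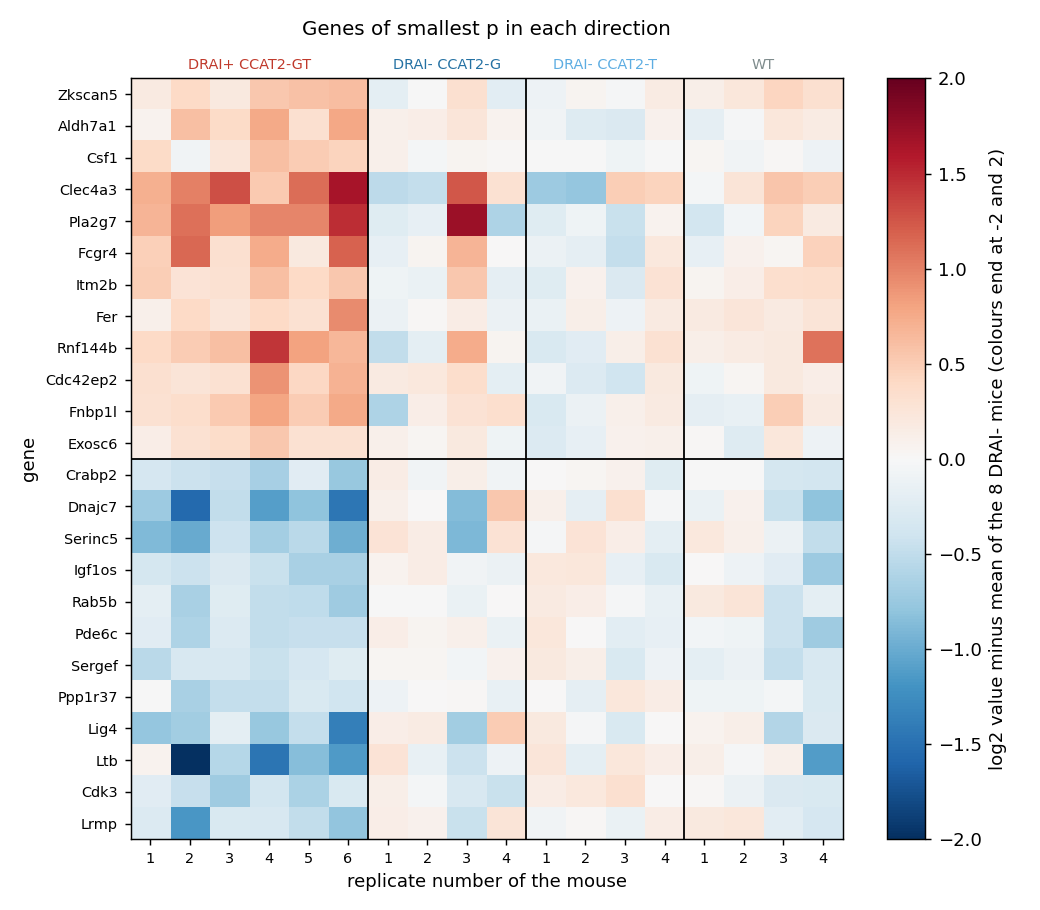
Log2 value minus the mean of the 8 DRAI- mice for the 12 genes of smallest p in each direction (rows) in every mouse (columns, by replicate number within group). Red is above and blue below that mean. CCAT2-G replicate 3, with 9.46 for Pla2g7 and 6.55 for Serinc5, has the colours of the DRAI+ mice in those rows.

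The 6 DRAI+ and 8 DRAI- mice did not overlap for 14 genes. In 1 gene, 0.00689% of those tested, DRAI+ was higher, and in 13 genes, 0.0896%, it was lower. Over all probesets the shares were 0.0158% and 0.0887%. The higher gene was Ly6i, of the Ly6 family of surface proteins, which had 5.16, 5.37 and 5.79 in DRAI+ mice, against 4.88, 5.08 and 5.15 in DRAI- mice (0.34, SE 0.09). Of the lower 13, 10 were not predicted genes, and the 5 of smallest p were Rab5b, Pde6c, Ptpdc1, Polm and Epha1. Polm, a DNA polymerase of end joining, had 4.95, 5.12 and 5.20 in DRAI+ mice, against 5.25, 5.40 and 6.02 in DRAI- mice (-0.41, SE 0.11). The phosphatase Ptpdc1 differed by -0.29 (SE 0.08) and the ephrin receptor Epha1 by -0.26 (SE 0.07). None of the 6 passed (limma, adjusted p = 0.456 for each).

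B-lineage genes were lower in DRAI+ marrow in both lists drawn up for them, without a gene that passed. The lists were chosen with earlier results of these data known, so their counts and medians are a description. Of 27 measured genes of mature B cells 26 were lower, and 23 were lower at an unadjusted p under 0.05, beside the 5.73% of all genes. Their median difference was -1.02, against -0.01 over all genes. Of 23 measured genes of B-cell precursors 22 were lower, 16 of them at that p, with a median of -0.93. The medians were -1.14 and -0.85 against CCAT2-G alone and -1.02 and -0.97 against CCAT2-T alone. The mean log2 value of the mature B-cell list was 7.15 ± 0.65 (SD, n = 6) in DRAI+ mice and 8.21 ± 0.68 (SD, n = 8) in DRAI- mice.

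By mouse the mature B-cell list stood at 7.30, 6.32, 7.96, 6.56, 7.76 and 6.98 in DRAI+ mice, against 8.88, 8.48, 6.80 and 8.64 in CCAT2-G mice, 8.64, 8.44, 7.65 and 8.13 in CCAT2-T mice and 8.75, 8.64, 7.47 and 7.02 in WT mice. All 6 DRAI+ mice were below the DRAI- mean, and 2 of them were below every DRAI- mouse. CCAT2-G replicate 3 and CCAT2-T replicate 3 lay within the DRAI+ range, as did WT replicates 3 and 4. The B-cell precursor list stood at 6.84, 5.75, 7.33, 6.68, 7.23 and 5.95 in DRAI+ mice, against 8.07, 7.96, 5.86 and 8.04 in CCAT2-G mice and 7.79, 7.88, 7.09 and 7.68 in CCAT2-T mice. WT replicates 1 and 2, which lay with the higher DRAI- mice on the mature list, are narrow arrays. So are CCAT2-T replicates 1 and 2 and CCAT2-G replicate 1. Without the narrow arrays the medians of the 2 lists were -0.75 and -0.72, and without CCAT2-G replicate 3 they were -1.15 and -1.14.

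Cd79a, which passes on the signal of the B-cell receptor, had 6.99, 4.83, 6.61, 4.92, 6.24 and 5.03 in DRAI+ mice, against 9.08, 8.55, 5.07 and 9.01 in CCAT2-G mice and 8.93, 8.49, 7.32 and 8.31 in CCAT2-T mice. Except for CCAT2-G replicate 3 all DRAI- mice were above all DRAI+ mice. The difference was -2.32 (SE 0.65, limma, adjusted p = 0.456), a level 0.2 times that of DRAI- marrow. Ms4a1, which encodes CD20, had 5.60, 7.46 and 8.55 in DRAI+ mice, against 7.33, 9.63 and 10.22 in DRAI- mice (-1.90, SE 0.55). The partner chain Cd79b differed by -1.44 (SE 0.43), and the inhibitory receptor Cd22 by -1.26 (SE 0.41). Pax5, the transcription factor that holds B-cell identity, had 4.30, 4.86 and 5.05 in DRAI+ mice, against 4.78, 5.45 and 5.67 in DRAI- mice (-0.61, SE 0.17). On these 5 genes all 6 DRAI+ mice were below the DRAI- mean.

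Genes of earlier B-cell stages had the same direction. The surrogate light chain genes Vpreb1 and Vpreb3 differed by -1.46 (SE 0.74) and -1.30 (SE 0.62), and Vpreb1 ran from 3.99 to 7.92 in DRAI+ mice, against 4.22 to 9.16 in DRAI- mice. The groups overlapped widely there. Foxo1 and Tcf3, transcription factors that B-cell development needs, differed by -0.95 (SE 0.29) and -0.43 (SE 0.13). Cecr2, a bromodomain protein of chromatin remodelling, is also on the lists and differed by -0.85 (SE 0.23). Of all 47 distinct members of the lists 45 were lower, the exceptions being the transcription factor Erg and Ighm. The unadjusted p of Cd79a, Cd79b, Ms4a1, Cd22, Pax5, Vpreb1, Vpreb3, Foxo1, Tcf3 and Cecr2 was 0.00171 to 0.0627 by limma, and none passed.

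**Figure D4:**
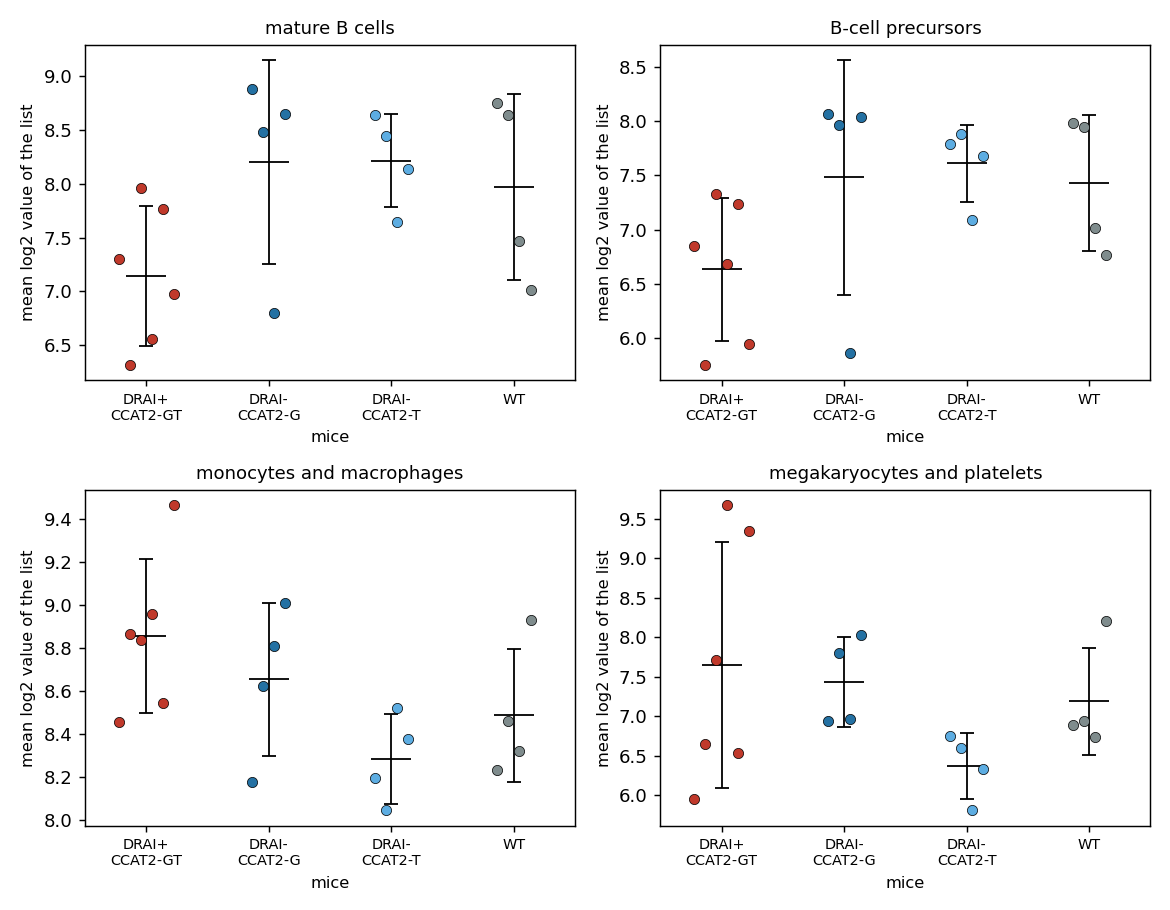
Mean log2 value over the measured members of 4 gene lists in each mouse, with the group mean and SD. The DRAI+ mice lie mostly below the DRAI- mice for both B-cell lists, CCAT2-G replicate 3 lies among the DRAI+ mice there, and the megakaryocyte list is led by CCAT2-GT replicates 4 and 6 at 9.67 and 9.34.

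Because the B-lineage genes were lower together, their promoters were searched on both strands. The letters searched were CCCNNGGG with a T before it and an A after it, a form of the site of the B-cell factor EBF1, that core alone, which the longer form contains, and the octamer ATGCAAAT bound by Oct factors. Promoters are windows of 300 bases around the RefSeq start site on GRCm38.p6, mostly upstream of it, and 34 of the 47 genes had 1 or more there. The longer form was in 2 of their 50 promoters, or 4%, against 0.904% of all 32851 promoters. The core alone was in 12% of them and in 13.7% of all, and the octamer in 4% and 1.74%. Shown, 5′ to 3′ on the strand of the gene, are the promoters of a mature B-cell receptor, Cd22 (chr7:30878979-30879278, minus strand), and of a regulator of the precursor stage, Foxo1 (chr3:52268087-52268386, plus strand), with the longer EBF1 form in capitals. The third is that of a surrogate light chain gene, Vpreb3 (chr10:75948050-75948349, plus strand), with the octamer in capitals, where it reads on the opposite strand.
Cd22: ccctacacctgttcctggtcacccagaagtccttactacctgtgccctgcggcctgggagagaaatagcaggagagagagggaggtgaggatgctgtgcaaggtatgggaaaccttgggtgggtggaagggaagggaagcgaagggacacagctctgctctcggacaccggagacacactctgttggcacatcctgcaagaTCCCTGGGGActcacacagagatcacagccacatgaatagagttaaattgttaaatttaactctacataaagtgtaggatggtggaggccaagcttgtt
Foxo1: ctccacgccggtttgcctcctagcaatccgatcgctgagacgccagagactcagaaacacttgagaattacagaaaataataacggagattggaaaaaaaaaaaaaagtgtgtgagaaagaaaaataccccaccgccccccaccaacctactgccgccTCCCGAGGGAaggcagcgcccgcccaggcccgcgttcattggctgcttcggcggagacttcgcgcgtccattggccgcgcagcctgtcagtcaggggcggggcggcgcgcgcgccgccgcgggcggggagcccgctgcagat
Vpreb3: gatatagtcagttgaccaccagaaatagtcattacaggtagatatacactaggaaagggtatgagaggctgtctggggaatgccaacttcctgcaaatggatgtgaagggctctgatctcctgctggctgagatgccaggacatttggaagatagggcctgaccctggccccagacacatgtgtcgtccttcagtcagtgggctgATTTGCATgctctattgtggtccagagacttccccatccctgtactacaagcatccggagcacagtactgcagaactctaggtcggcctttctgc
Each match is a description of letters only, and Cd22, Foxo1 and Vpreb3 are the lower genes whose values stand above.

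Plasma cell genes did not share that direction. Of 17 measured members 10 were higher and 7 lower, with a median of 0.09. Edem1, which sends misfolded glycoproteins to degradation, had 8.58, 8.91 and 9.53 in DRAI+ mice, against 7.98, 8.31 and 9.10 in DRAI- mice (0.60, SE 0.17). Xbp1, which drives secretory capacity, differed by 0.44 (SE 0.14) and Prdm1, the plasma cell factor Blimp-1, by 0.42 (SE 0.14). On these 3, all 6 DRAI+ mice were above the DRAI- mean. Mzb1, an endoplasmic reticulum protein of B and plasma cells, differed by -0.54 (SE 0.22) and the joining chain Jchain by -0.06 (SE 0.34). None of the 5 passed.

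Immunoglobulin probesets were counted after values were seen, so their counts are a description. Of 36 tested probesets with 1 immunoglobulin symbol, from 18 genes, 23 were higher and 13 lower in DRAI+ marrow, with a median of 0.10. At an unadjusted p under 0.05, 8 were higher and 2 lower, beside 4.41% and 5.4% of all probesets, and none passed. Most of those higher were probesets of the single gene Ighm, and the rest were of Igk, Igkv14-111 and Ighg3. The lower ones were of Ighv14-2 and Iglv1. The count is thus not one of separate genes. Over all probesets 49.4% were higher. The range ran from -2.07 for the variable segment Ighv14-2 to 1.60 for a probeset of Ighm, the heavy chain of IgM. The brightest Ighm probeset had 12.32, 13.77 and 13.95 in DRAI+ mice, against 11.84, 12.79 and 13.78 in DRAI- mice (0.77, SE 0.34). Ighg3, a heavy chain of IgG, had 7.10, 7.61 and 10.19 in DRAI+ mice, against 5.29, 6.93 and 8.73 in DRAI- mice (1.04, SE 0.47). It differed by 1.57 against CCAT2-G alone and 0.50 against CCAT2-T alone, and by 0.60 without CCAT2-GT replicate 2. Igha, the heavy chain of IgA, differed by 0.12 (SE 0.32). Probesets of such near-identical genes can measure each other's RNA, so these values are uncertain by gene.

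Monocyte and precursor genes were higher in DRAI+ marrow by list, and no member passed. Of 31 measured genes of monocytes and macrophages 29 were higher, 9 at an unadjusted p under 0.05, beside the 3.84% of all genes, and the median was 0.36. The list mean was 8.85 ± 0.36 (SD, n = 6) in DRAI+ mice and 8.47 ± 0.33 (SD, n = 8) in DRAI- mice, and 5 of 6 DRAI+ mice were above the DRAI- mean. Csf1r, the receptor of Csf1, had 9.96, 10.35 and 10.70 in DRAI+ mice, against 9.18, 9.85 and 10.35 in DRAI- mice (0.53, SE 0.18), and the pore-forming protein Mpeg1 differed by 0.44 (SE 0.16). The ranges of the groups overlapped on both. The list median was 0.24 against CCAT2-G alone, 0.62 against CCAT2-T alone and 0.17 without the narrow arrays.

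Of 14 genes of granulocyte-monocyte precursors 13 were higher, 2 of them at that p, beside the 3.84% of all genes, with a median of 0.39. Mpo, the peroxidase of primary granules, had 11.66, 12.35 and 12.95 in DRAI+ mice, against 11.15, 11.92 and 12.53 in DRAI- mice (0.46, SE 0.21). The granule proteases Prtn3, Ctsg and Elane differed by 0.50 (SE 0.27), 0.50 (SE 0.29) and 0.07 (SE 0.29), and Elane turned its sign without the narrow arrays, at -0.043. Nkg7, a granule protein of cytotoxic lymphocytes, differed by 0.58 (SE 0.17), with all 6 DRAI+ mice above the DRAI- mean. The list median was 0.14 without the narrow arrays and 0.20 with the interquartile range as a covariate.

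Of 19 genes of secondary and tertiary granules 14 were higher, with a median of 0.08, which was 0.10 against CCAT2-G alone and -0.07 against CCAT2-T alone. Olfm4, a glycoprotein of a subset of neutrophils, differed by -0.66 (SE 0.25), Abca13 by 0.25 (SE 0.27) and Ltf, the iron-binding protein of secondary granules, by 0.10 (SE 0.17). S100a8 had medians of 13.73 in DRAI+ and 13.79 in DRAI- mice. Of 25 genes of mature neutrophils 18 were higher, with a median of 0.16, which was -0.0094 without CCAT2-GT replicate 1 and 0.30 without the stroma-rich arrays. The protease inhibitor Slpi had 11.25, 11.62 and 12.37 in DRAI+ mice, against 10.14, 10.66 and 11.98 in DRAI- mice (0.82, SE 0.25), and the chemokine Ccl6 differed by 0.60 (SE 0.25). Of 22 genes of eosinophils, basophils and mast cells 15 were higher, with a median of 0.19. That median was 0.05 without CCAT2-GT replicate 5, 0.31 without CCAT2-GT replicate 6, 0.31 without CCAT2-G replicate 4 and 0.06 without the Xist-high arrays. The monoamine transporter Slc18a2 differed by 0.69 (SE 0.28), and by 0.42 without the stroma-rich arrays. The eotaxin receptor Ccr3 differed by 0.86 (SE 0.45), by 0.36 against CCAT2-G alone and 1.36 against CCAT2-T alone, and by 0.56 without CCAT2-GT replicate 6. None of these genes passed.

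Megakaryocyte and platelet genes had the highest median of the 33 lists, 0.76. All 28 measured members were higher, where 48.3% of all genes were. At an unadjusted p under 0.05 there were 5, beside the 3.84% of all genes. The list means by mouse were 5.95, 6.65, 7.71, 9.67, 6.53 and 9.34 in DRAI+ mice, against 6.94, 7.80, 6.96 and 8.03 in CCAT2-G mice and 6.75, 6.60, 5.81 and 6.33 in CCAT2-T mice. CCAT2-GT replicates 4 and 6 were the highest, and 3 of 6 DRAI+ mice were above the DRAI- mean. The median turned to -0.22 without the stroma-rich arrays, and it was 0.20 against CCAT2-G alone and 1.35 against CCAT2-T alone. It was 1.16 without CCAT2-GT replicate 1, 0.32 without CCAT2-GT replicate 4 and 0.39 without CCAT2-GT replicate 6.

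Thbs1, an adhesive protein of platelet granules, had 8.70, 7.30, 8.83, 11.11, 8.24 and 10.70 in DRAI+ mice, against 7.97, 8.45, 7.31 and 8.61 in CCAT2-G mice and 7.11, 6.95, 7.05 and 7.20 in CCAT2-T mice (1.57, SE 0.50). Its 2 highest mice were again CCAT2-GT replicates 4 and 6. The coagulation factor F5 differed by 0.82 (SE 0.26), the platelet selectin Selp by 1.19 (SE 0.48), the ATP-gated channel P2rx1 by 0.90 (SE 0.36) and the platelet chemokine Pf4 by 0.58 (SE 0.62). Without the stroma-rich arrays Thbs1 was at 0.69, F5 at 0.34, Selp at 0.36, P2rx1 at 0.26 and Pf4 at -0.43. P2rx1 was at 0.59 without CCAT2-GT replicate 4, and Pf4 at -0.14 against CCAT2-G alone. None passed.

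The list of stroma, bone and endothelium was high in the same mice. Of 35 measured members 30 were higher, with a median of 0.32, and the list mean ran from 4.44 to 7.38 in DRAI+ mice, against 4.54 to 6.16 in DRAI- mice. The collagen Col5a2 differed by 0.57 (SE 0.25), fibronectin Fn1 by 0.61 (SE 0.31) and the endothelial adhesion molecule Pecam1 by 0.34 (SE 0.19). The stroma-rich arrays were picked on this same list and hold 2 DRAI+ and 0 DRAI- mice, so the list had to be lower without them, and its median there, -0.27, is a description only. The median was 0.51 without CCAT2-GT replicate 1, 0.08 without CCAT2-GT replicate 4 and 0.03 without CCAT2-GT replicate 6. The part of stromal cells in the megakaryocyte difference was not tested beyond these values and a stroma covariate, under which that median was 0.38.

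Stem and progenitor genes were split, 17 of 27 higher with a median of 0.10, which was -0.040 without the stroma-rich arrays. Myct1 and the transcription factor Mecom differed by 0.42 (SE 0.14) and 0.31 (SE 0.12), Sox4, which early B cells also express, by -0.93 (SE 0.39), Kit, the receptor of stem cell factor, by 0.28 (SE 0.21) and Cd34 by 0.03 (SE 0.32). Erythroid genes were balanced, with 22 of 40 higher and a median of 0.02, while the mean of the list was 9.51 in DRAI+ and 9.53 in DRAI- mice, the opposite sign. The erythroid transcription factors Gata1 and Klf1 differed by 0.23 (SE 0.17) and -0.14 (SE 0.20). Bpgm, which sets the oxygen affinity of haemoglobin, differed by -0.43 (SE 0.36). The probeset of the globin gene Hba-a2 differed by 0.52 (SE 0.27) but is dim. It ran from 3.73 to 5.06 in DRAI+ and 3.61 to 5.37 in DRAI- mice, close to the filter level of 3.30, while the erythroid gene Alas2 ran from 10.81 to 12.66. None passed.

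Of 25 genes of T and NK cells 19 were lower, 3 of them at an unadjusted p under 0.05, beside the 5.73% of all genes. At that p 1 was higher, beside the 3.84% of all genes. It was Nkg7, whose value stands above with the precursor genes that share it. The median was -0.18, and it was -0.11 without CCAT2-GT replicate 2, -0.30 without CCAT2-GT replicate 3 and -0.093 without the narrow arrays. The interleukin receptor chain Il2rb had 4.58, 5.46 and 6.06 in DRAI+ mice, against 5.69, 6.10 and 6.93 in DRAI- mice (-0.76, SE 0.23), the adhesion molecule Cd2 differed by -0.77 (SE 0.32) and Cd3e, of the T-cell receptor complex, by -0.30 (SE 0.17). Of 14 dendritic cell genes 11 were lower, with a median of -0.24. That median was -0.089 without CCAT2-GT replicate 2, -0.45 without CCAT2-GT replicate 3, -0.050 without the stroma-rich arrays and -0.085 against CCAT2-T alone. Ly6d, which B-cell precursors also express, differed by -1.15 (SE 0.38) and Bst2 by -0.34 (SE 0.21). Of 16 genes of skeletal muscle, the tissue around the bone, 15 were lower, with a median of -0.20, which was -0.045 against CCAT2-G alone, -0.36 against CCAT2-T alone, -0.03 without CCAT2-T replicate 1 and 0.02 without the narrow arrays. Myoglobin Mb differed by -0.35 (SE 0.21) and the sarcomere protein Myoz1 by -0.27 (SE 0.16). None passed.

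**Figure D5:**
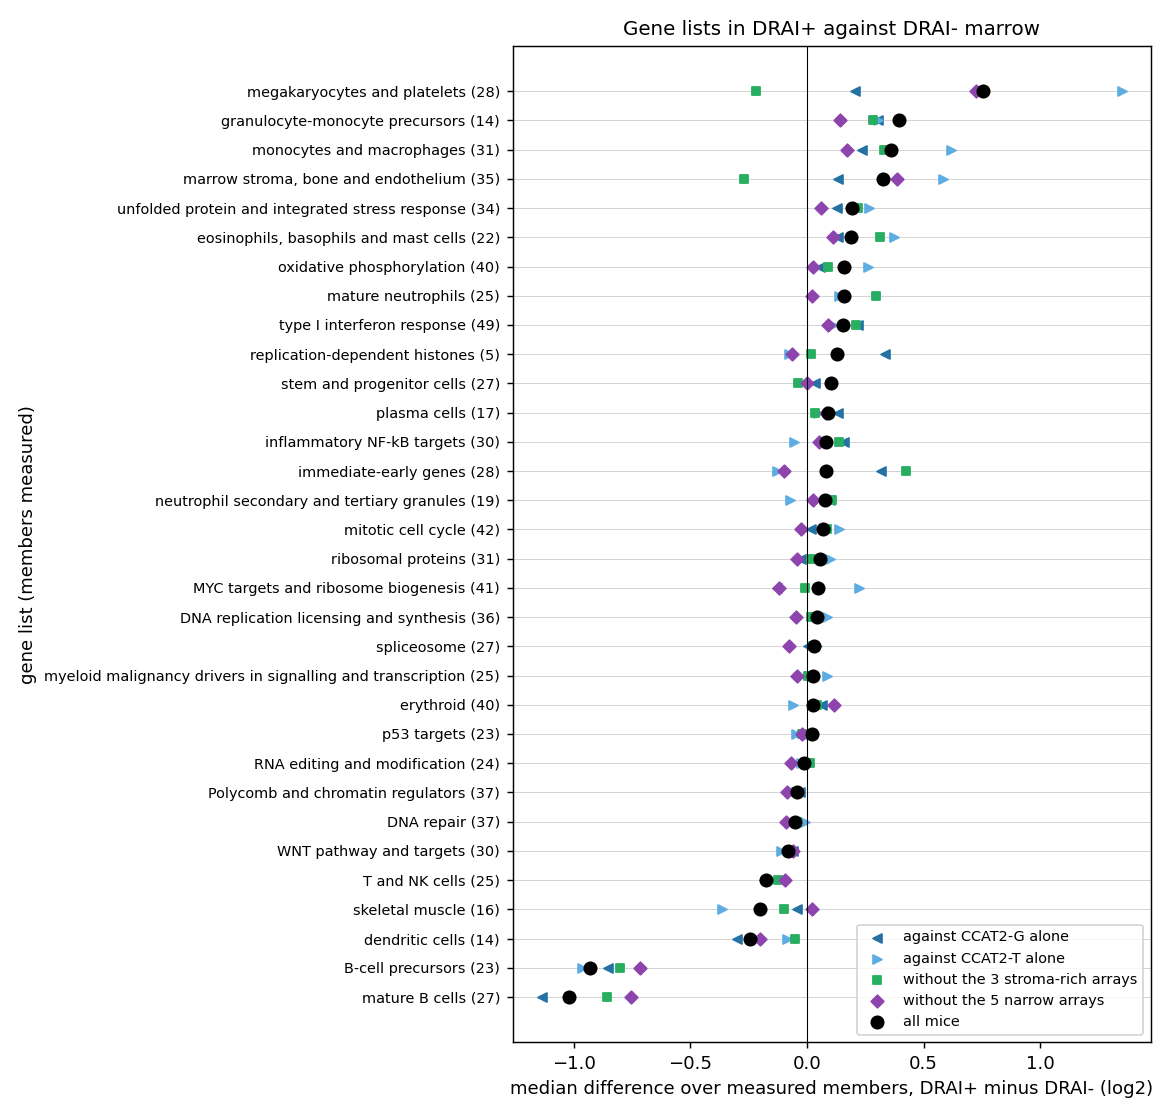
Median difference over the measured members of each list (log2, DRAI+ minus DRAI-), for all mice and for 4 alternatives. The sex-linked list, at -1.06, is not drawn. The B-cell lists lie at -1.02 and -0.93 and stay below 0 in the alternatives drawn, and the megakaryocyte list, at 0.76, moves to -0.22 without the stroma-rich arrays.

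Type I interferons induce antiviral genes, and 38 of 49 measured members of that list were higher, 7 at an unadjusted p under 0.05, beside the 3.84% of all genes, with a median of 0.15. The median was 0.047 without CCAT2-GT replicate 3, 0.088 without CCAT2-GT replicate 4 and 0.30 without CCAT2-GT replicate 6. Ifi204, a member of the family that senses foreign DNA, had 5.18, 5.66 and 6.03 in DRAI+ mice, against 4.17, 4.84 and 5.59 in DRAI- mice (0.74, SE 0.22). Parp12, Slfn5 and the guanylate-binding protein Gbp2 differed by 0.51 (SE 0.17), 0.66 (SE 0.25) and 0.53 (SE 0.20). The list mean ran from 6.76 to 7.78 in DRAI+ mice, against 6.90 to 7.46 in DRAI- mice, with 4 of 6 above the DRAI- mean. The median was 0.03 with sex, as read from Xist, as a covariate, and 0.08 without the Xist-high arrays. No member passed.

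The unfolded protein and integrated stress response protects cells from misfolded proteins in the endoplasmic reticulum. Of its 34 measured genes 28 were higher, 7 of them at an unadjusted p under 0.05, beside the 3.84% of all genes, with a median of 0.19, and all 6 DRAI+ mice were above the DRAI- mean. The co-chaperone Dnajc3 had 8.41, 8.54 and 9.01 in DRAI+ mice, against 7.62, 8.23 and 8.63 in DRAI- mice (0.49, SE 0.15). Syvn1, a ubiquitin ligase of that compartment, differed by -0.51 (SE 0.20), the other way. The median was 0.06 without the narrow arrays. Oxidative phosphorylation genes, which make the respiratory chain, were higher in 36 of 40 cases with a median of 0.16. The ATP synthase subunits Atp5b and Atp5a1 differed by 0.35 (SE 0.15) and 0.35 (SE 0.16), and the oxidase subunits Cox8a and Cox5b by 0.22 (SE 0.10) and 0.17 (SE 0.08). That median was 0.05 against CCAT2-G alone, 0.26 against CCAT2-T alone and 0.02 without the narrow arrays. No member of either list passed.

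Growth and proliferation lists had small medians. The median was 0.05 for 41 MYC targets, 0.07 for 42 mitotic genes, 0.04 for 36 replication genes and 0.05 for 31 ribosomal protein genes. All 4 medians turned their sign without the narrow arrays, at -0.12, -0.028, -0.047 and -0.043. The MYC median was -0.13 against CCAT2-G alone and 0.22 against CCAT2-T alone, and the ribosomal median -0.025 and 0.10. Without 1 mouse at a time the medians ran over -0.011 to 0.14 for MYC targets, -0.0025 to 0.13 for mitotic and -0.011 to 0.11 for replication genes. The catalytic subunit of DNA polymerase delta, Pold1, had 7.87, 8.30 and 8.46 in DRAI+ mice, against 8.03, 8.74 and 8.97 in DRAI- mice (-0.41, SE 0.13), and the origin factor Cdc45 differed by 0.33 (SE 0.16). The kinetochore gene Ndc80 and the mitotic kinase Aurkb differed by -0.20 (SE 0.13) and 0.31 (SE 0.20). Polr1b, of RNA polymerase I, differed by 0.22 (SE 0.10), the nucleolar Nop16 by 0.33 (SE 0.17), and the ribosomal proteins Rps2 and Rplp0 by 0.17 (SE 0.08) and 0.13 (SE 0.07). Replication-dependent histones had 5 measured members with a median of 0.13, which was 0.33 against CCAT2-G alone and -0.078 against CCAT2-T alone, H1f2 at 0.52 (SE 0.33) and H2bc21 at -0.25 (SE 0.14). None passed.

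The proto-oncogene Myc had 7.73, 8.08 and 8.20 in DRAI+ mice, against 7.31, 8.00 and 8.68 in DRAI- mice, a difference of 0.05 (SE 0.18). Its neighbour Pvt1, a long non-coding RNA, had 4.98, 5.33 and 6.28 in DRAI+ mice, against 5.21, 5.39 and 5.99 in DRAI- mice. Both differences were smaller than their SE. Ezh2, the methyltransferase subunit of the Polycomb complex PRC2, had 8.68, 8.96 and 9.17 in DRAI+ mice, against 8.83, 9.07 and 9.39 in DRAI- mice (-0.17, SE 0.11). Of 37 Polycomb and chromatin genes 24 were lower, 4 at an unadjusted p under 0.05, beside the 5.73% of all genes, with a median of -0.04. The PRC1 members Cbx7, Rnf2 and Pcgf2 differed by -0.42 (SE 0.14), -0.21 (SE 0.09) and -0.25 (SE 0.10), and the deacetylase Hdac2 by -0.24 (SE 0.11). For these 4, all 6 DRAI+ mice were below the DRAI- mean. None of these genes passed.

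RNA editing and modification genes had a median of -0.01 over 24 members, 13 of them lower. Adar, which converts adenosine to inosine in double-stranded RNA, differed by 0.01 (SE 0.12). Apobec3, a cytidine deaminase that restricts retroviruses, had 7.29, 7.54 and 7.85 in DRAI+ mice, against 7.29, 8.19 and 8.54 in DRAI- mice (-0.56, SE 0.18). The related Apobec2 differed by -0.22 (SE 0.08) and Wtap, of the m6A methyltransferase complex, by -0.22 (SE 0.09). Spliceosome genes had a median of 0.03 over 27 members, with Srsf2 at 0.32 (SE 0.16) and Prpf40b at -0.22 (SE 0.10). Myeloid malignancy drivers had a median of 0.03 over 25 members, with the RAS regulator Nf1 at -0.33 (SE 0.14) and the transcription factor Cux1 at -0.24 (SE 0.13). None passed.

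Of 37 measured DNA repair genes 21 were lower and 16 higher, where 48.3% of all genes were higher. At an unadjusted p under 0.05, 4 were lower, beside the 5.73% of all genes. The median was -0.05, and it was 0.017 without CCAT2-GT replicate 3. Beside Lig4 those lower at that p were Xrcc6, the Ku70 protein of end joining (-0.45, SE 0.16), the glycosylase Ogg1 (-0.48, SE 0.20) and the damage kinase Atm (-0.25, SE 0.12). The p53 list had a median of 0.02 over 23 members, with the ribonucleotide reductase subunit Rrm2b at -0.54 (SE 0.17) and Trp53inp1 at -0.22 (SE 0.09). WNT genes had a median of -0.08 over 30 members. All 6 DRAI+ mice were below the DRAI- mean of the WNT list, 5.58 ± 0.04 (SD, n = 6) in DRAI+ mice against 5.67 ± 0.10 (SD, n = 8) in DRAI- mice, though CCAT2-G replicate 3 was the lowest of the 14, at 5.43. The signal transducer Dvl3 and the inhibitor Nkd1 differed by -0.30 (SE 0.11) and -0.26 (SE 0.12). None passed.

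Inflammatory NF-kB targets had a median of 0.08 over 30 members, while 3 of them were lower at an unadjusted p under 0.05, beside the 5.73% of all genes. The median was 0.16 against CCAT2-G alone and -0.058 against CCAT2-T alone, and 0.017 without CCAT2-GT replicate 1. The genes lower at that p were Bcl3 (-0.73, SE 0.25), Nfkbie (-0.39, SE 0.17) and Nfkb2 (-0.31, SE 0.14), which regulate or form NF-kB itself, and Bcl3 had all 6 DRAI+ mice below the DRAI- mean. Immediate-early genes had a median of 0.08 over 28 members, at 0.32 against CCAT2-G alone, -0.13 against CCAT2-T alone and -0.031 without CCAT2-GT replicate 1, with the phosphatase Dusp2 at -0.55 (SE 0.27) and the G-protein regulator Rgs1 at 1.02 (SE 0.50). None passed.

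The sex-linked genes followed the number of Xist-high mice in each group. Xist ran from 3.77 to 11.16 in DRAI+ mice, against 3.52 to 12.02 in DRAI- mice (2.57, SE 1.42). The Y-linked Eif2s3y differed by -1.93 (SE 1.00) and Kdm5d by -1.54 (SE 0.66). With sex, as read from Xist, as a covariate Xist differed by -0.22 and Eif2s3y by 0.029. The covariate was set by Xist itself, so the Xist difference had to shrink, and its value there is a description only. No gene passed in that fit either.

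Probesets without a symbol were lower more often than higher. Of 9211 such probesets 4878 were tested, the called pair being 0.041% of them, beside 0.00633% of all probesets. In DRAI+ marrow 39.4% were higher, beside 49.4% of all probesets. At an unadjusted p under 0.05 there were 9.08%, beside 9.8% of all probesets. Of those without a symbol 109 were higher (2.23%) and 334 lower (6.85%), beside 4.41% and 5.4% of all probesets. Groups without overlap were found for the called pair on the higher side (0.041%) and for 1 probeset on the lower side (0.0205%). Over all probesets these shares were 0.0158% and 0.0887%.

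The next in the higher direction were 1447819_x_at at 0.52 (SE 0.12), 1438432_at at 0.45 (SE 0.11) and 1416329_at at 0.43 (SE 0.12). In the lower direction 1453395_at had 3.18, 3.54 and 4.17 in DRAI+ mice, against 3.69, 4.42 and 4.92 in DRAI- mice (-0.79, SE 0.19). The next were 1432978_at at -0.37 (SE 0.10), 1446143_at at -0.37 (SE 0.10), 1439744_at at -0.58 (SE 0.16) and 1425393_a_at at -0.41 (SE 0.11). The 6 DRAI+ mice lay on the same side of the DRAI- mean for each of these 8, and none passed (limma, adjusted p = 0.446 for each). Of them 1453395_at, 1432978_at and 1446143_at are dim. Their medians were 3.54, 3.48 and 3.29 in DRAI+ mice, close to the filter level of 3.30.

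Inside the DRAI- pool, 0 of 14505 genes passed between CCAT2-G and CCAT2-T marrow (0%, limma), with 912 genes, or 6.29%, at an unadjusted p under 0.05. Between DRAI+ marrow and CCAT2-G alone 770 genes had an unadjusted p under 0.05, and between DRAI+ marrow and CCAT2-T alone 1827, where 725 would be found by chance. After adjustment 0 genes passed in each (limma, smallest adjusted p = 0.904 and 0.354). Both comparisons share the DRAI+ mice, so their values are given side by side only. Against CCAT2-G and against CCAT2-T, Cd79a differed by -2.16 and -2.49, Csf1r by 0.69 and 0.37, Thbs1 by 1.06 and 2.07, and Pf4 by -0.14 and 1.31.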

How the data were processed

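Total RNA of marrow cells from 18 mice was measured on an Affymetrix array of 45101 probesets. The values are log2 expression that the authors deposited, normalized with RMA per the submitters' processing notes, whose version is not given in the sources used here. Genes were named from the platform annotation. Each of 18194 genes was represented by its brightest probeset, and those with a mean under the 30th percentile of all probesets (3.30) were left out, which removes dim genes.

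A linear model of 3 groups (DRAI+, DRAI-, WT) on all 18 arrays was fitted with limma 3.58.1 in R 4.3.3 (eBayes with trend), and DRAI+ minus DRAI- was tested with Benjamini-Hochberg adjustment at 0.05, over genes and again over all probesets. The members and the 33 gene lists were chosen with earlier results of these data known, so lists carry counts and medians only. Named are the 12 genes of smallest p per direction without predicted genes, 2 to 4 per list, up to 5 per direction without overlap, a fixed set of markers, and 5 probesets without symbol per direction. A few genes were added after their values were seen, as stated beside them or because they are immunoglobulin genes or carry the promoters shown. Alternatives changed the normalization, filter, probeset rule, model, covariates and the mice included. Promoters are RefSeq's, on GRCm38.p6. The number of arrays limits the precision, and an array gives no count depth.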

Additional observations from a re-analysis of the deposited data

Results flagged for a closer look

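Among the lists, genes and probesets named here, 366 groups of values were screened for a mouse far from the rest of its group, and 41 were found, while chance gives about 1 in 20 groups. A mouse counted when its gap to the next, divided by the range of its group, was above Dixon's critical value. Values are log2.

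CCAT2-GT replicate 2 stood apart among the DRAI+ mice 5 times. It was the highest at 8.56 for the unfolded protein and integrated stress response list, 12.34 for probeset 1426174_s_at, 12.86 for probeset 1424631_a_at and 7.40 for Cdc45. On the low side it had 11.02 for Igha.

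CCAT2-GT replicate 6 stood apart among the DRAI+ mice 4 times. It was the highest at 6.05 for Fer. It was the lowest at 7.23 for the Polycomb and chromatin regulators list, 2.93 for probeset 1446143_at and 12.26 for Ltf.

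CCAT2-GT replicate 1 stood apart among the DRAI+ mice 2 times. It was the highest at 5.71 for Ogg1. On the low side it had 12.32 for Ighm.

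CCAT2-GT replicate 3 stood apart among the DRAI+ mice 2 times. It was the lowest at 7.74 for Aurkb and 4.23 for Nkd1.

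CCAT2-G replicate 3 stood apart among the DRAI- mice 18 times. Mctp1, Abcd2, Hdac9 and 4930426D05Rik were named because they passed without this mouse, so their flags are a description only. It was the highest at 6.46 for the eosinophils, basophils and mast cells list, 9.46 for Pla2g7, 5.37 for Hba-a2, 7.32 for Mctp1 and 7.20 for Abcd2. On the low side it had 5.86 for the B-cell precursors list, 5.43 for the WNT pathway and targets list, 6.55 for Serinc5, 5.07 for Cd79a, 7.16 for Cd79b and 6.27 for Foxo1. CCAT2-G replicate 3 was also the lowest at 6.59 for Tcf3, 7.56 for Mzb1, 5.89 for Cd2, 7.13 for Sox4, 6.39 for Dusp2 and 3.97 for Hdac9. CCAT2-G replicate 3 was also the lowest at 3.72 for 4930426D05Rik.

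CCAT2-T replicate 3 stood apart among the DRAI- mice 6 times. It was the highest at 12.02 for Xist, 6.93 for Il2rb and 7.39 for Rgs1. It was the lowest at 4.83 for the sex-linked list, 2.14 for Eif2s3y and 2.05 for Kdm5d.

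CCAT2-T replicate 1 stood apart among the DRAI- mice 3 times. It was the highest at 6.31 for the skeletal muscle list and 5.80 for Mb. On the low side it had 4.88 for Ly6i.

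CCAT2-G replicate 4 stood apart among the DRAI- mice 1 time. It was the lowest at 6.54 for probeset 1447819_x_at.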

How the results depend on the processing

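Of 140 named genes 127 kept their direction in every setting, and 13 of 33 lists kept the sign of their median. Some settings, such as eBayes without trend or the minimum fold, leave each difference as it was, so no direction could turn there. Many of the genes were also named for their small p in these data, so these counts are a description. The number of called genes was 0 in all 21 alternatives that kept the mice or left out a named set, and 0 to 7 without 1 mouse at a time, the 7 without CCAT2-G replicate 3, which also gave 121 probesets (2 to 121 over the mice). The number of called probesets was 0 with the 14 arrays alone, against CCAT2-G alone, with a minimum fold of 1.5, with the replicate block, with the letter of the mouse identifier as a covariate and without the narrow or the stroma-rich arrays, and 1 against CCAT2-T alone and with sex as a covariate. The differences of 1426174_s_at and 1424631_a_at there, with their adjusted p, were 2.81 and 2.37 alone and with a minimum fold (0.0563 and 0.172) and with the letter (0.0706), 2.46 and 2.31 against CCAT2-G (0.408), 2.63 and 2.07 without narrow (0.875) and 2.89 and 2.45 without stroma-rich arrays (0.138). For 1424631_a_at alone they were 2.43 against CCAT2-T (0.0748) and 2.25 with sex (0.0765). The cause was not tested.

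The number of genes at an unadjusted p under 0.05 ran from 21 with a minimum fold of 1.5 and 629 without the stroma-rich arrays to 2508 with array weights.

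Whether mice with the same replicate number pair is not settled by the values. Of 24 such pairs from different groups 11 correlated above 0.1, with a median of 0.086. Of 96 pairs with different numbers 34 did, with a median of -0.067. Of 18 mice 6 correlated best, among mice of other groups, with a mouse of their own number. CCAT2-GT replicates 5 and 6 have no such mouse and could not be among them. With the replicate block the probesets differed by 3.00 and 2.57 (adjusted p = 0.0508 by limma), Pvt1 by -0.12 and Igha by -0.12.

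Some differences turned their sign. Most of these were small, but those of Xist, Eif2s3y, Pf4 and Bpgm were 2.57, -1.93, 0.58 and -0.43 over all mice. With quantile normalization Myc was at -0.010, Pvt1 at -0.025 and Adar at -0.039. Against CCAT2-G alone Myc was at -0.14, Pf4 at -0.14, Cd34 at -0.037 and Jchain at 0.046, and against CCAT2-T alone Pvt1 was at -0.027, Adar at -0.12 and Ltf at -0.074. With array weights Pvt1 was at -0.13, Elane at -0.12 and Jchain at 0.0032. With sex as a covariate Pvt1 was at -0.064, Adar at -0.062, Cd34 at -0.097, Xist at -0.22 and Eif2s3y at 0.029. Sex was read from Xist itself in that fit. With the interquartile range as a covariate Myc was at -0.061, Pvt1 at -0.010, Adar at -0.020 and Cd34 at -0.16, and with the stroma covariate Pvt1 at -0.069. Without the narrow arrays Myc was at -0.20, Adar at -0.060, Elane at -0.043, Kit at -0.038, Cd34 at -0.40 and Bpgm at 0.0097. Without the stroma-rich arrays Pvt1 was at -0.069, Elane at -0.095, Pf4 at -0.43 and Igha at -0.095, and without the Xist-high arrays Pvt1 at -0.015 and Jchain at 0.017. Without 1 mouse at a time the differences ran over -0.046 to 0.15 for Myc, -0.16 to 0.10 for Pvt1, -0.037 to 0.090 for Adar, -0.12 to 0.33 for Elane, -0.14 to 0.22 for Cd34, -0.24 to 0.15 for Jchain and -0.013 to 0.46 for Igha. The sex-linked median, -1.06, was -1.54 with a filter at the 50th percentile, -0.47 with probesets averaged per gene, -1.59 with array weights, -1.50 and -0.61 against CCAT2-G and CCAT2-T, -0.15 with sex as a covariate, -0.068 and -1.69 without the Xist-high and the stroma-rich arrays, and -1.38 to -0.81 without 1 mouse at a time.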
